A study of Mus musculus with 6 samples.

Results

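Glycosaminoglycan chain synthesis and sulfation was followed through 40 enzymes and transporters in condylar cartilage of mice with a deletion of Indian hedgehog (Ihh) in craniofacial neural crest cells. The 40 genes were chosen by symbol, with earlier results of these data known. All 40 were among the 24346 genes of the deposited tables, and all 40 reached the level needed for testing. By step they were 5 genes of the linkage region, 15 of chondroitin and dermatan sulfate, 13 of heparan sulfate and 7 that supply sulfate and sugar nucleotides.

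RNA was sequenced from the cartilage that covers the mandibular condyle, dissected under a microscope, in 3 mutant and 3 control libraries. The mutant group carried the neural crest deletion of Ihh, and its samples were checked by the study for Ihh, Cre and Tomato (a fluorescent reporter) expression. The control group was labelled fl/fl, the usual notation for a floxed gene, with no other allele or treatment given for either group. The sources used here do not give strain, age, sex, the Cre driver or any pooling of animals. Replicates are not said to be separate mice, and p-values then cover only the spread among these libraries, which may be technical.

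The glycosaminoglycans followed here, chondroitin, dermatan and heparan sulfate, are long sugar chains built in the Golgi on serine residues of core proteins. A short linkage of xylose, galactose and glucuronic acid is made first. The next sugar decides between chondroitin sulfate, the main chain of cartilage aggrecan, and heparan sulfate, which binds growth factors and hedgehog proteins at the cell surface. Sulfotransferases then place sulfate at set positions of the sugars, using the activated sulfate donor PAPS, and cartilage is known for its high demand for sulfate.

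Among the 40 genes, 2 differed between mutant and control cartilage. The sulfate transporter gene Slc26a2 fell to 12.6 ± 1.43 FPKM in mutants, against 34.7 ± 6.46 FPKM in controls. The heparan sulfate 3-O-sulfotransferase gene Hs3st1 rose to 8.39 ± 3.10 FPKM in mutants, against 1.49 ± 0.592 FPKM in controls (mean ± SD, n = 3 per group). FPKM counts sequenced fragments relative to transcript length and to library size, so levels can be set side by side between genes. The other 38 genes did not pass the test. Of the 7 supply genes 4 (57.1%), Slc26a2 included, had every mutant value below every control value, beside 9.4% of all genes tested.

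The test was limma on log2(FPKM + 1) over the 18715 genes that reached 1 FPKM in 3 or more libraries, with Benjamini-Hochberg adjustment and a threshold of 0.05. It called 1.24% of all genes tested, 0.775% higher and 0.465% lower in mutants, and 5% of the 40 genes. At an unadjusted p below 0.05 stood 17.5% of the 40 genes, 1 higher and 6 lower, beside 14.1% of all genes, 7.94% higher and 6.11% lower. The mutant and control values did not overlap in 27.5% of the 40 genes and in 19.2% of all genes. Of the 40, 8 genes (20%) lay wholly lower in mutants, where all genes gave 9.4%, and 3 (7.5%) wholly higher, where all genes gave 9.77%. The median log2 fold change was -0.23 over the 40 genes and 0.00085 over all genes tested, and 27 of the 40 were negative.

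**Figure D1:**
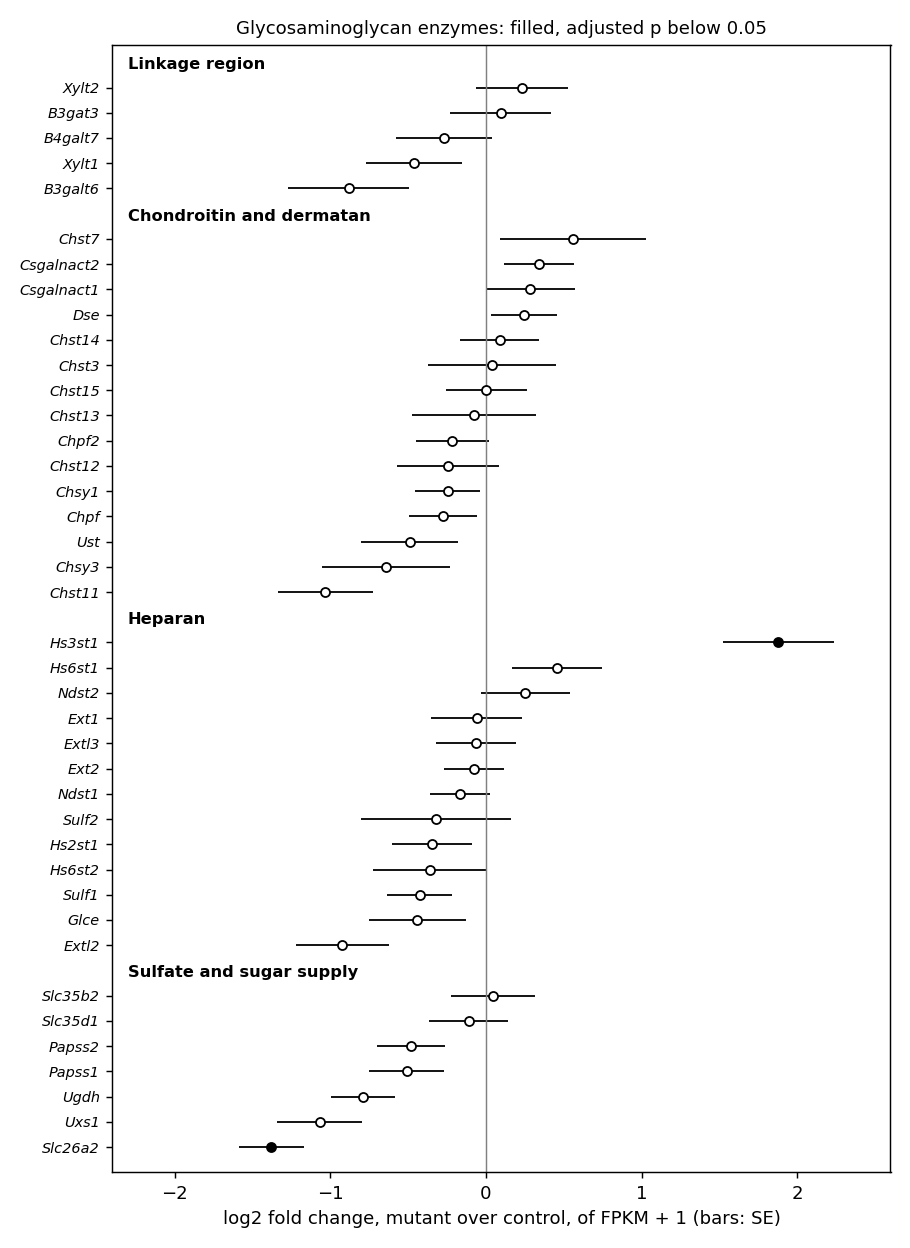
Log2 fold change of FPKM + 1, mutant over fl/fl control, for each of the 40 genes (x axis) by step, with the standard error as a bar. The filled points, Hs3st1 at 1.88 and Slc26a2 at -1.38, passed an adjusted p of 0.05 and the open points did not.

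Ihh itself measured 2.18, 2.33 and 2.66 FPKM in mutants 1, 2 and 3, against 3.73, 2.51 and 3.74 FPKM in controls 1, 2 and 3. The groups overlapped, and the difference did not pass the test (log2 fold change -0.34 ± 0.30 SE, limma adjusted p = 0.724). The deleted part of Ihh was not named in the labels, so its level over the whole gene does not test the deletion.

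The library totals behind the FPKM values were estimated to be low. Steps between low FPKM values gave totals of 0.993 to 1.33 relative to control 1. The total of control 1 was estimated at 1282000 fragments, the median over 782 genes with 1 annotated transcript. These are the totals used for scaling, and without read counts or settings they may differ from the sequencing depth. For 31 of the 40 genes, a set of whole fragment numbers reproduced all 6 values within 0.0076 of a fragment. The smallest such set was taken for each gene, and larger sets were not searched. Those genes had 37 to 1450 fragments over the 6 libraries, with a median of 275. Ratios of these numbers are given with exact (Clopper-Pearson) 95% intervals, which cover counting error only, since the libraries carry no molecular identifiers. The within-group chi-square of the fragment numbers had a median of 3.03 per degree of freedom over these genes (range 0.219 to 10.4), where counting error alone gives about 1.

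The mutant libraries also differed from the controls in marker genes of several cell types. Of 11 chondrocyte markers 5 fell, and their summed level was 167 to 238 FPKM in mutants, against 400 to 538 FPKM in controls, with Matn1, a cartilage matrilin, listed at 0 in mutant 3. Of 12 skeletal muscle markers 6 rose, with sums of 17119 to 31853 FPKM in mutants and 3895 to 9621 FPKM in controls. Of 8 endothelial markers 3 rose, with sums of 208 to 258 FPKM in mutants and 76.7 to 138 FPKM in controls, and no muscle or endothelial marker was at 0 in any library. Osteoblast markers (0 of 8 called, 2446 to 6010 FPKM in mutants and 2838 to 3088 FPKM in controls), macrophage markers (0 of 7) and erythroid and neutrophil markers (0 of 7) did not pass, and 1 of 8 fibroblast markers, Postn, fell. The X-inactivation transcript Xist measured 0.577 to 0.984 FPKM in mutants, against 29.5, 29.2 and 0.608 FPKM in controls 1, 2 and 3. Control 3 was thus the control with Xist as low as in the mutants. The sex of the animals is not given. For controls 1 and 2, a difference that goes with Xist, such as sex, cannot be told apart from genotype. In bulk tissue, fewer cells of a type and less RNA per cell cannot be told apart.

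Slc26a2 encodes the sulfate transporter that brings sulfate into chondrocytes, and its loss causes chondrodysplasia in humans and mice. GENCODE M21 places it on the minus strand of chromosome 18 at positions 61192919 to 61211612 (mm10). It measured 13.7, 13.2 and 11.01 FPKM in mutants 1, 2 and 3, against 29.9, 32.2 and 42.0 FPKM in controls 1, 2 and 3. The lowest control was thus above the highest mutant, and the 3 mutants lay close together. Its log2 fold change was -1.38 ± 0.21 (SE, limma adjusted p = 0.0251). The values corresponded to 216 fragments in mutants and 619 in controls, a scaled ratio of 0.357 (exact 95% interval 0.304 to 0.417). Without control 1, control 2, mutant 1 or mutant 2 the log2 fold change was -1.48 to -1.41 with limma adjusted p of 0.0838, 0.0802, 0.0889 and 0.0724, and with controls 1 and 2 left out, which leaves the control that shares the low Xist level of the mutants, it was -1.66 (adjusted p = 0.28). With the mean of the muscle markers as a covariate it was -1.84 (limma adjusted p = 0.678). The muscle sums did not overlap between groups, so that fit cannot separate genotype from muscle level.

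The next steps use the sulfate that enters. Papss1 and Papss2 encode the synthases that make PAPS, and loss of Papss2 gives short limbs in mice. Papss2 had 17.1, 17.9 and 12.5 FPKM in mutants 1, 2 and 3, against 21.1, 20.03 and 25.9 FPKM in controls 1, 2 and 3. These groups did not overlap, and the difference did not pass (log2 fold change -0.48 ± 0.22 SE, limma adjusted p = 0.370). Papss1, the synthase found in most tissues, had 20.5, 22.6 and 32.4 FPKM in mutants and 30.8, 32.0 and 45.5 FPKM in controls, where mutant 3 lay inside the control range (log2 fold change -0.51 ± 0.24, adjusted p = 0.398). Papss2 made up 45.4%, 44.1% and 27.8% of the summed Papss1 and Papss2 level in mutants 1, 2 and 3 and 36.3% to 40.6% in controls, so its share had no common direction. The ratio of Slc26a2 to the summed synthases was 0.246 to 0.366 in mutants and 0.576 to 0.619 in controls. These ranges did not overlap, a separation given by the Slc26a2 values themselves. Slc35b2 carries PAPS into the Golgi. It was the member with the second highest mean of this step, at 29.6, 48.3 and 35.9 FPKM in mutants and 31.0, 29.0 and 51.7 FPKM in controls, with overlapping groups (log2 fold change 0.05 ± 0.27, adjusted p = 0.968) and a sign that turned under 7 of 17 alternative settings.

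Among the sugar nucleotide genes, Ugdh makes UDP-glucuronic acid, a building block of chondroitin and heparan sulfate, and Uxs1 turns part of it into the UDP-xylose that starts the linkage. Ugdh had the highest mean of all 40 genes and stood at the 93.5th percentile of the tested genes. It measured 38.7, 52.1 and 58.2 FPKM in mutants 1, 2 and 3, against 76.0, 85.3 and 96.4 FPKM in controls 1, 2 and 3. No mutant reached the lowest control, with 522 fragments in mutants and 928 in controls and a scaled ratio of 0.575 (exact 95% interval 0.515 to 0.641). The limma difference did not pass (log2 fold change -0.79 ± 0.21 SE, adjusted p = 0.111). Ugdh exons are shared with the annotated gene Gm43552 on the same strand, and reads of the pair were not separated here.

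Uxs1 had 5.29, 9.33 and 11.3 FPKM in mutants 1, 2 and 3, against 19.8, 17.3 and 18.3 FPKM in controls 1, 2 and 3. Every mutant lay below the 3 controls, which were close together, with 43 fragments in mutants and 93 in controls, and the scaled ratio was 0.472 (exact 95% interval 0.321 to 0.685). Its log2 fold change of -1.07 ± 0.27 (SE) did not pass (limma adjusted p = 0.107). The ratio of Ugdh to Uxs1 was 5.17 to 7.32 in mutants and 3.84 to 5.26 in controls, so these ranges overlapped. Slc35d1, which carries UDP-glucuronic acid and UDP-N-acetylgalactosamine into the endoplasmic reticulum, had 8.33 ± 2.22 FPKM in mutants and 8.90 ± 0.933 FPKM in controls (adjusted p = 0.906).

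Together, the 7 supply genes had 1 call, and 6 of 7 log2 fold changes were negative with a median of -0.51. Their summed level was 134, 169 and 171 FPKM in mutants 1, 2 and 3, against 218, 225 and 288 FPKM in controls 1, 2 and 3, and this was the step whose sums did not overlap between groups. The chondrocyte marker sums, given above, did not overlap either and lay in the same direction, and their part in the supply values was not tested.

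**Figure D2:**
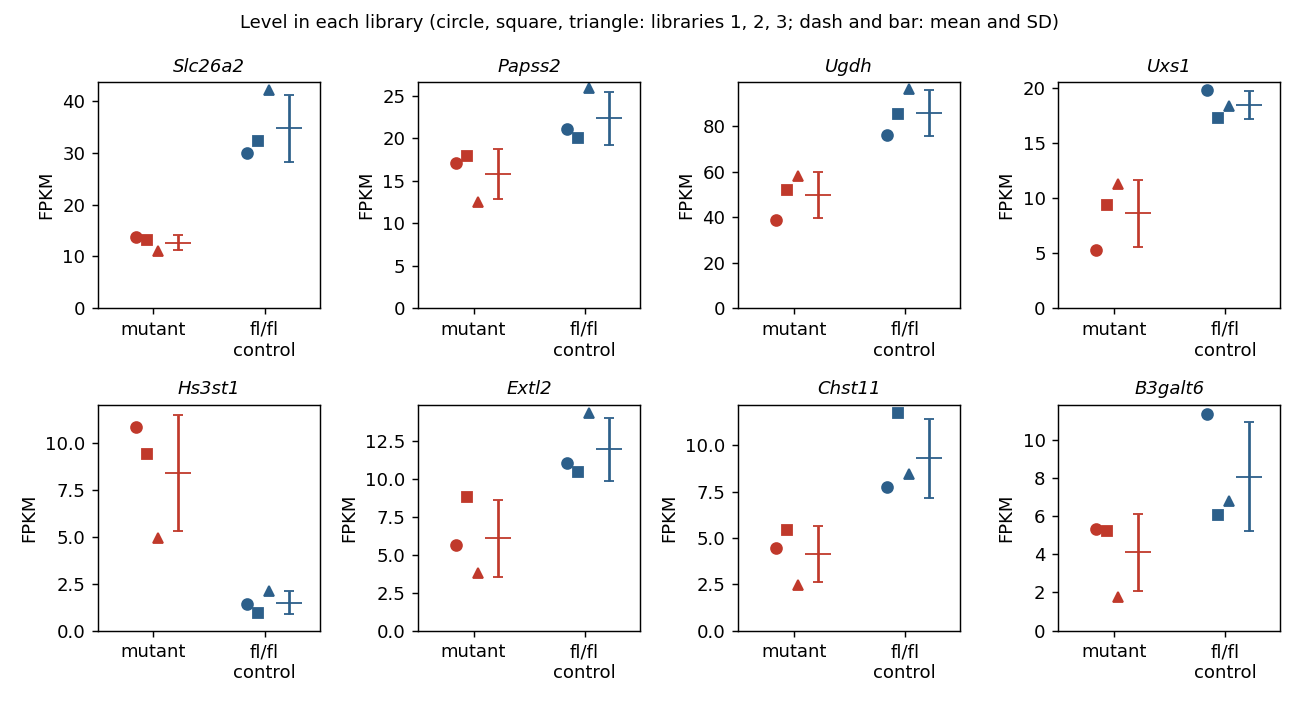
FPKM (y axis, from 0) of 8 genes in each mutant and fl/fl control library, with circle, square and triangle for libraries 1, 2 and 3 and a dash and bar for mean and SD. In all 8 the 3 mutant values lay on one side of the 3 control values, higher for Hs3st1 (at least 4.92 FPKM in mutants, at most 2.12 FPKM in controls) and lower for the other genes.

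Promoter windows of Ugdh and Uxs1, consecutive enzymes with non-overlapping groups, and of Hs3st1 and Chst11, described further on, are shown to allow their letters to be set side by side. Each window runs from 250 bases before to 50 bases after a RefSeq start (GRCm38.p6), 5′ to 3′ on the gene's own strand. Capitals mark matches, on either strand, to the Gli motif GACCACCCA, the hypoxia response core ACGTG, the GC box GGGCGG and the CCACG end of the endoplasmic reticulum stress element. CCACG shares letters with the hypoxia core, read on the other strand, where CCACGT occurs.
Ugdh, chr5:65435793-65436092, minus strand: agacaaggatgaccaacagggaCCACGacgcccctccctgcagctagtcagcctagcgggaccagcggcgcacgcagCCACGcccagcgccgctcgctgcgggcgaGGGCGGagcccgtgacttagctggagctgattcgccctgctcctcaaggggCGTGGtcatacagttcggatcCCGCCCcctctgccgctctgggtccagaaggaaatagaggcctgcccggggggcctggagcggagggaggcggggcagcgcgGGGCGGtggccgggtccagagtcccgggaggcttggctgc
Uxs1, chr1:43827790-43828089, minus strand: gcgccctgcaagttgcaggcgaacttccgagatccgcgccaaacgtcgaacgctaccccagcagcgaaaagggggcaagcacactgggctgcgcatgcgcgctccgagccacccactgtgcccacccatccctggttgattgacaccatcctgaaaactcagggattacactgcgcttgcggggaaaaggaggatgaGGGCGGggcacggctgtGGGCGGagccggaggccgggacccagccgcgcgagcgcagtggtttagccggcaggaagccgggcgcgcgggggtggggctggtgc
Hs3st1, chr5:39644582-39644881, minus strand: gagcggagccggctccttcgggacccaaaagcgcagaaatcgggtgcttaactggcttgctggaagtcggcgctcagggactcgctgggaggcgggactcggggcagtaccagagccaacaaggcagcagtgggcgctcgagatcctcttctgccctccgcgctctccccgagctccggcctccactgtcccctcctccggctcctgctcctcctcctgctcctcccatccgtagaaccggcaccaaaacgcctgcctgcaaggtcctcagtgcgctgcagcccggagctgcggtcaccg
Chst11, chr10:82985247-82985546, plus strand: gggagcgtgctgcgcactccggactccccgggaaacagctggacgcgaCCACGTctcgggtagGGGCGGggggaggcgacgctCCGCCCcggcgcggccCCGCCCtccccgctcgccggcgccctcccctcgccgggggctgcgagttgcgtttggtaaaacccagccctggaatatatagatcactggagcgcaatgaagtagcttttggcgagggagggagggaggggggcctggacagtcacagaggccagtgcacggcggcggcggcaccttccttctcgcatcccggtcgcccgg
The Ugdh window held 3 GC boxes and 3 stress matches. The Uxs1 window held 2 GC boxes, and the Chst11 window held 3 GC boxes and a stress match that overlaps a hypoxia core. The Hs3st1 window held no match to any of the motifs searched, and it lies inside the longer GENCODE model of the gene. Of the 40 genes, 32 were found in the RefSeq table, with 40 windows. The GC box was in 67.5% of these windows and in 35.7% of all 32851 windows, CCACG in 52.5% and 32.8%, and the hypoxia core in 22.5% and 19.6%. The Gli motif was in 0 of the 40 windows and in 0.253% of all windows. A match is a run of letters and not a bound site.

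Hs3st1 places the rare 3-O-sulfate of heparan sulfate that antithrombin binds. GENCODE M21 places it on the minus strand of chromosome 5 at positions 39613935 to 39755475 (mm10). Its level was 10.9, 9.41 and 4.92 FPKM in mutants 1, 2 and 3, against 1.41, 0.948 and 2.12 FPKM in controls 1, 2 and 3. Mutant 3, the lowest mutant, still lay above control 3, the highest control.

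The log2 fold change of Hs3st1 was 1.88 ± 0.36 (SE, limma adjusted p = 0.0466), just under the threshold. It came from 58 fragments in mutants (23, 24 and 11) and 11 in controls (3, 2 and 6), a scaled ratio of 5.39 (exact 95% interval 2.80 to 11.4). The call held in 3 of 16 alternative settings, and the sign held in all 16. It was lost without control 1 (adjusted p = 0.132), control 2 (0.135), control 3 (0.059), mutant 1 (0.164) or mutant 2 (0.153), and also after median scaling (0.0503), without robust moderation (0.0533), with a pseudocount of 0.1 (0.0533) and with no filter (0.0622).

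Hs3st1 differed in the same direction as the muscle and endothelial markers. Its lowest library in each group, mutant 3 and control 2, was also the library of that group with the lowest muscle sum (17119 FPKM in mutant 3 and 3895 FPKM in control 2) and the lowest endothelial sum (208 FPKM in mutant 3 and 76.7 FPKM in control 2). The erythroid and neutrophil sum was lowest in the same libraries (1230 FPKM in mutant 3 and 694 FPKM in control 2). The highest libraries did not match among the mutants, since Hs3st1 was highest in mutant 1 and these sums were highest in mutant 2. The muscle sums did not overlap between groups, so a fit with the muscle marker mean as a covariate cannot separate genotype from muscle level. In that fit the log2 fold change of Hs3st1 was 0.53 (limma adjusted p = 0.932). With controls 1 and 2 left out it was 1.53 (adjusted p = 0.464). The part of endothelial cells in the result was not tested.

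The other O-sulfotransferases of heparan sulfate gave no call. Hs6st1, which adds 6-O-sulfate, had 3.18, 4.62 and 3.76 FPKM in mutants and 2.38, 2.79 and 2.38 FPKM in controls, groups that did not overlap at this low level (32 fragments in mutants and 21 in controls, ratio 1.56, exact 95% interval 0.871 to 2.84). Its paralogue Hs6st2 had 8.15, 3.25 and 3.05 FPKM in mutants and 7.80, 5.63 and 4.71 FPKM in controls, and Hs2st1, the 2-O-sulfotransferase, had 5.45 ± 1.30 FPKM in mutants and 7.10 ± 0.601 FPKM in controls. Among the summed level of these enzymes, Hs3st1 made up 28.4% to 41.3% in mutants and 5.54% to 13.4% in controls, a shift given by the Hs3st1 values themselves. Hs6st1 shares exon sequence with the antisense gene Gm37335, and these libraries do not separate strands.

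None of the chain polymerase genes passed the test. Ext2, a subunit of the heparan polymerase, measured 31.9, 33.9 and 39.2 FPKM in mutants, against 31.1, 40.5 and 39.6 FPKM in controls (log2 fold change -0.08 ± 0.19 SE, limma adjusted p = 0.916; 436 fragments in mutants and 475 in controls, ratio 0.938, exact 95% interval 0.822 to 1.07). Its partner Ext1 had 11.99 ± 1.79 FPKM in mutants and 13.04 ± 4.65 FPKM in controls. Extl3, which adds the first N-acetylglucosamine, had 6.33 ± 1.03 FPKM in mutants and 6.69 ± 1.52 FPKM in controls. Extl2, an exostosin-like transferase that acts on the linkage region, stood apart from these, with 5.62, 8.82 and 3.79 FPKM in mutants and 11.04, 10.5 and 14.4 FPKM in controls. Its groups did not overlap, and its log2 fold change of -0.92 ± 0.30 did not pass (adjusted p = 0.192).

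Ndst1 and Ndst2 start the sulfation of heparan sulfate by replacing acetyl groups with sulfate. Ndst1 had 391 fragments in mutants and 449 in controls (ratio 0.890, exact 95% interval 0.775 to 1.02), with 14.2 ± 1.17 FPKM in mutants and 16.0 ± 1.01 FPKM in controls. Ndst2 had 8.37 ± 1.07 FPKM in mutants and 7.10 ± 2.53 FPKM in controls. Glce, the epimerase that makes iduronic acid in heparan sulfate, had 9.47, 4.07 and 7.77 FPKM in mutants and 9.92, 7.77 and 11.1 FPKM in controls, with overlapping groups (limma adjusted p = 0.627).

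Sulf1 and Sulf2 encode endosulfatases that remove 6-O-sulfate outside the cell. Sulf1 had 9.04, 9.25 and 10.1 FPKM in mutants 1, 2 and 3, against 14.5, 11.02 and 13.8 FPKM in controls 1, 2 and 3. The groups did not overlap, and the difference did not pass (log2 fold change -0.43 ± 0.21 SE, limma adjusted p = 0.427). Sulf2, the second most abundant heparan gene by mean, had 18.5, 15.04 and 59.6 FPKM in mutants and 22.5, 30.5 and 48.9 FPKM in controls. Mutant 3 was the highest library of all for Sulf2 and mutant 2 the lowest, so mutants enclosed the controls (adjusted p = 0.845), and the sign of its log2 fold change of -0.32 turned without mutant 2 and with the muscle covariate. Exons of Sulf2 overlap Ncoa3 on the opposite strand.

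Over the heparan step, 1 of 13 genes rose and 0 fell, and 10 of 13 log2 fold changes were negative with a median of -0.17. The summed level was 143, 136 and 177 FPKM in mutants, against 155, 152 and 190 FPKM in controls, with overlapping groups.

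None of the 15 chondroitin and dermatan sulfate genes passed the limma test over all genes, and 1 had an unadjusted p below 0.05. That gene was Chst11, which encodes the main chondroitin 4-O-sulfotransferase of cartilage and whose loss in mice causes severe chondrodysplasia. Chst11 had 4.46, 5.45 and 2.49 FPKM in mutants 1, 2 and 3, against 7.73, 11.7 and 8.46 FPKM in controls 1, 2 and 3. Every mutant lay below every control, with 104 fragments in mutants and 234 in controls and a ratio of 0.454 (exact 95% interval 0.357 to 0.575). The log2 fold change of -1.03 ± 0.31 (SE) did not pass (adjusted p = 0.155), and 17 alternative settings gave adjusted p of 0.107 to 0.807.

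Chst12 and Chst13 encode enzymes of the same reaction. Chst12 had the highest mean of the step, at 18.1, 39.3 and 44.7 FPKM in mutants and 33.9, 33.7 and 47.0 FPKM in controls, with mutant 1 low and the other mutants inside the control range (limma adjusted p = 0.827). Its sign turned when mutant 1 was left out. Chst13 had 2.71 ± 1.85 FPKM in mutants and 2.66 ± 0.634 FPKM in controls, from 19 fragments in mutants and 18 in controls. Chst11 made up 18.2%, 11.01% and 5.11% of the summed level of these enzymes in mutants 1, 2 and 3 and 17.2%, 24.5% and 14.7% in controls 1, 2 and 3, so mutant 1 overlapped the controls.

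The genes of 6-position sulfation had low levels. Chst3, the 6-O-sulfotransferase known from human skeletal dysplasia, had 1.30, 0.785 and 2.79 FPKM in mutants and 2.24, 1.07 and 1.15 FPKM in controls (44 fragments in mutants and 41 in controls). Chst7, with the same activity, had 2.81, 2.92 and 5.65 FPKM in mutants and 5.25, 1.41 and 1.05 FPKM in controls (35 fragments in mutants and 23 in controls, ratio 1.56, exact 95% interval 0.893 to 2.76). The ratio of the summed 4-O to the summed 6-O enzymes was 5.97, 13.4 and 5.76 in mutants and 6.01, 19.3 and 26.2 in controls. The 4-O enzymes were the more abundant in all 6 libraries, and control 1 lay with the mutants.

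The genes of chain start and extension did not pass the test. Csgalnact1 and Csgalnact2 add the first N-acetylgalactosamine, which commits the chain to chondroitin. Csgalnact2 had 11.5, 12.1 and 16.8 FPKM in mutants, against 9.07, 10.95 and 10.9 FPKM in controls, with no overlap and no call (log2 fold change 0.34 ± 0.23 SE, limma adjusted p = 0.602). Mutant 3 was the highest, and without it the log2 fold change was 0.18. Csgalnact1 had 11.9, 10.9 and 20.5 FPKM in mutants and 10.4, 9.38 and 14.4 FPKM in controls, where the groups overlapped.

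Of the polymerising enzymes, Chpf, a polymerising factor, was the most abundant, with 17.2, 16.9 and 20.1 FPKM in mutants and 24.8, 17.0 and 25.01 FPKM in controls (limma adjusted p = 0.685). The synthase Chsy1 had 11.9 ± 1.68 FPKM in mutants and 14.3 ± 1.30 FPKM in controls, and Chpf2 had 13.8 ± 2.96 FPKM in mutants and 16.1 ± 3.21 FPKM in controls. Chsy3 was uneven between libraries of a group, with 2.85, 3.31 and 8.98 FPKM in mutants and 5.30, 7.24 and 11.1 FPKM in controls. All 4 genes had negative log2 fold changes, from -0.64 to -0.22, and none passed.

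The genes of dermatan sulfate and of rarer sulfate positions did not pass either. Dse, the epimerase that turns chondroitin into dermatan, had 13.1 ± 0.404 FPKM in mutants and 10.98 ± 2.004 FPKM in controls, and Chst14, the dermatan 4-O-sulfotransferase, 18.2 ± 2.23 FPKM in mutants and 17.5 ± 4.92 FPKM in controls. Chst15, which adds a further sulfate to a 4-sulfated sugar, had 5.10 ± 0.956 FPKM in mutants and 5.06 ± 0.716 FPKM in controls, the fold change nearest to 0 of all 40 genes. Ust, the uronyl 2-O-sulfotransferase, had 4.79, 8.10 and 5.34 FPKM in mutants and 10.8, 10.8 and 5.64 FPKM in controls, with mutant 2 above control 3.

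As a step, chondroitin genes had 7 positive and 8 negative log2 fold changes with a median of -0.08. Their sums of 139, 165 and 192 FPKM in mutants and 166, 172 and 200 FPKM in controls overlapped.

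**Figure D3:**
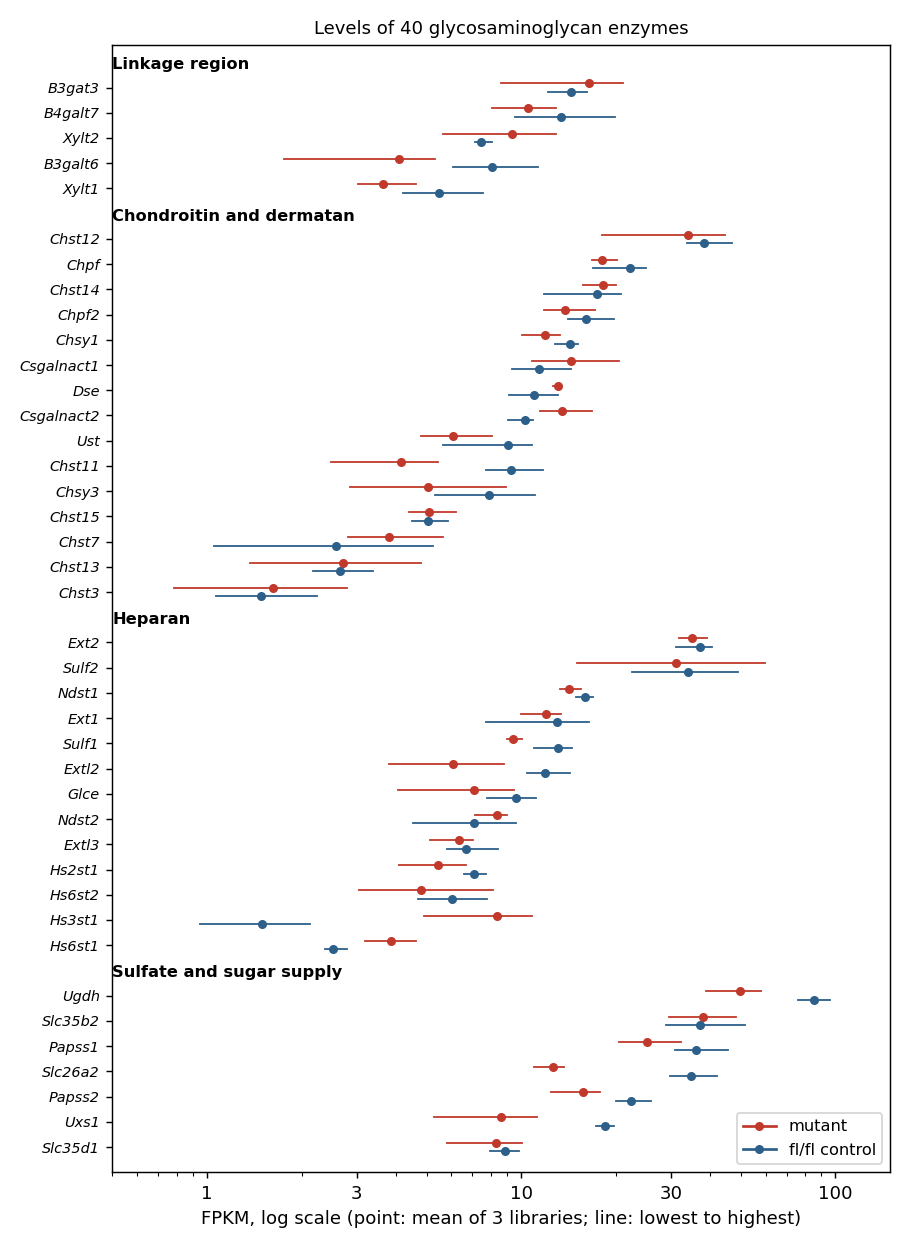
FPKM on a log axis (x axis) of each of the 40 genes by step, with the mean of 3 libraries as a point and the lowest to highest library as a line, for mutants and fl/fl controls. Ugdh stands highest with means of 49.7 FPKM in mutants and 85.9 FPKM in controls, Chst3 lowest with 1.63 FPKM in mutants and 1.49 FPKM in controls, and the lines of most chondroitin genes overlap.

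The linkage is started by the xylosyltransferases Xylt1 and Xylt2 and completed by B4galt7, B3galt6 and B3gat3, which add galactose, galactose and glucuronic acid. B3galt6, whose human mutations affect skeleton and skin, measured 5.33, 5.20 and 1.76 FPKM in mutants, against 11.3, 6.06 and 6.78 FPKM in controls. Its groups did not overlap, though mutant 1 and control 2 were close. With 58 fragments in mutants and 114 in controls, the ratio was 0.52 (exact 95% interval 0.372 to 0.719), and the log2 fold change of -0.88 ± 0.39 (SE) did not pass (limma adjusted p = 0.353). Without mutant 3, the lowest library, the log2 fold change was -0.49.

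B3gat3 and B4galt7 had the highest means of the linkage step. B3gat3 had 8.61, 21.0 and 19.7 FPKM in mutants and 16.2, 12.2 and 14.8 FPKM in controls, so mutants lay on both sides of the controls, and its sign turned under 5 of 17 settings. B4galt7 had 10.5, 12.9 and 8.08 FPKM in mutants and 10.5, 9.59 and 19.96 FPKM in controls, where control 3 stood above the rest (adjusted p of 0.941 and 0.792 by limma for the pair). Exons of B4galt7 overlap the antisense gene Gm15911.

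Xylt1, whose loss makes mice dwarfed, had 4.63, 3.04 and 3.23 FPKM in mutants and 4.62, 7.59 and 4.20 FPKM in controls. Xylt2 had the higher mean, with 5.63, 9.54 and 12.9 FPKM in mutants and 7.14, 8.06 and 7.15 FPKM in controls. The ratios of fragments were 0.672 for Xylt1 (exact 95% interval 0.457 to 0.980) and 1.27 for Xylt2 (0.988 to 1.64), with limma adjusted p of 0.602 and 0.813. The summed level of the step was 34.7, 51.8 and 45.7 FPKM in mutants and 49.8, 43.5 and 52.9 FPKM in controls.

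Over all steps, the interval of the fragment ratio lay below 1 for 10 of the 31 genes with whole fragments, above 1 for 2 (Hs3st1 and Csgalnact2) and included 1 for 19. These intervals hold for the pooled fragments of the libraries sequenced and not for the spread between mice. They were made only for these genes and Ihh, so the counts have no share over all genes beside them. The spread within groups, at a median chi-square of 3.03 per degree of freedom, can make such intervals miss 1 more often than counting error alone.

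**Figure D4:**
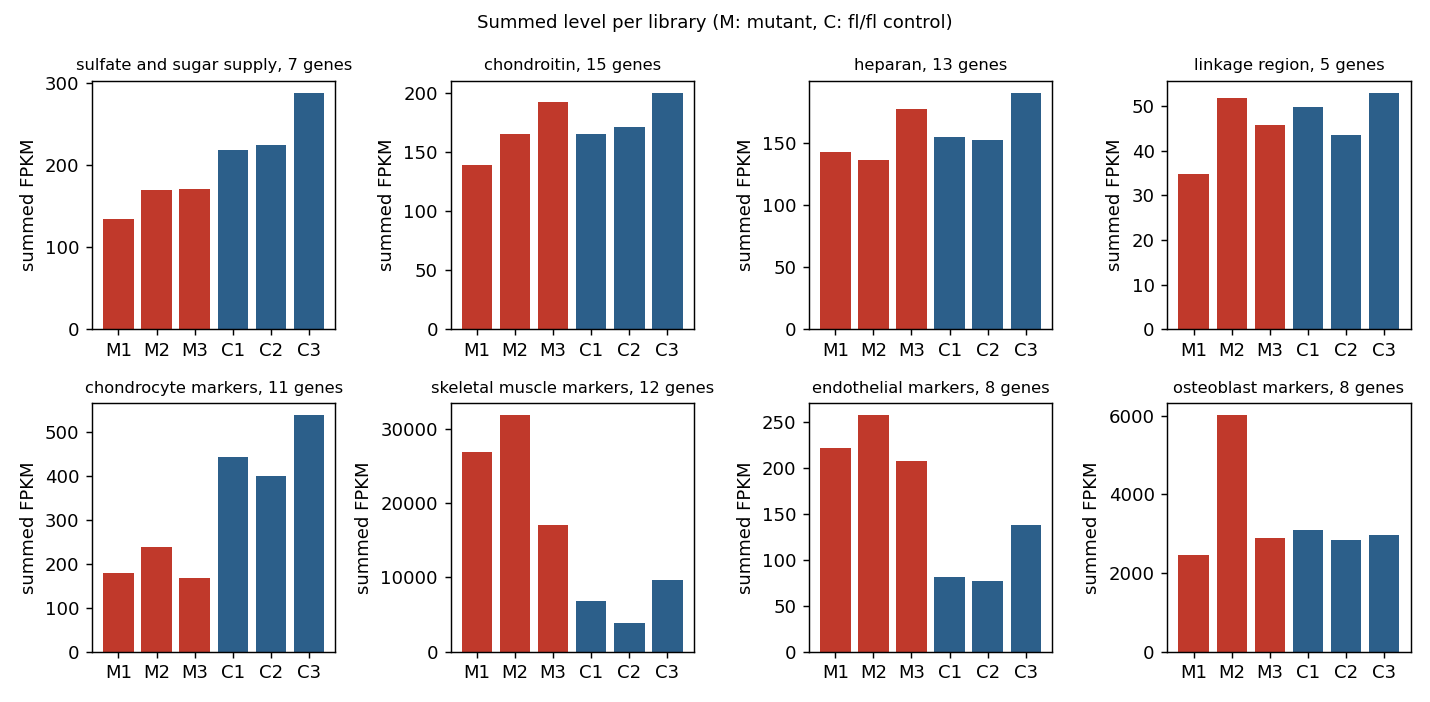
Summed FPKM (y axis, from 0) per library, M1 to M3 for mutants and C1 to C3 for fl/fl controls, of the genes of each step (top) and of marker lists (bottom). The supply sums, 134 to 171 FPKM in mutants and 218 to 288 FPKM in controls, and the chondrocyte marker sums separate in the same direction, while muscle and endothelial marker sums are higher in every mutant.

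The remaining synthesis enzymes had 0 calls by limma among 10 tested, with 1 gene higher and 1 lower at an unadjusted p below 0.05. Extl1, an exostosin-like transferase, had 7.32, 7.27 and 4.56 FPKM in mutants and 3.92, 1.79 and 2.41 FPKM in controls (adjusted p = 0.189). Fam20b, the kinase that phosphorylates the linkage xylose and so promotes chain growth, had 7.09, 9.05 and 9.66 FPKM in mutants and 14.8, 12.2 and 12.2 FPKM in controls (adjusted p = 0.295). Neither pair of groups overlapped. The epimerase homologue Dsel had 4.91 ± 0.537 FPKM in mutants and 7.66 ± 1.58 FPKM in controls, and the 3-O-sulfotransferase gene Hs3st6, listed at 0 in mutants 1 and 3, had 1.15 FPKM in mutant 2 and 1.03 to 2.06 FPKM in controls.

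Of 18 genes of further precursor and Golgi supply, 1 rose and 0 fell. At an unadjusted limma p below 0.05, 2 were higher and 5 lower, where all genes gave 7.94% higher and 6.11% lower. Pgm2, a phosphoglucomutase, rose to 120.0, 109 and 77.3 FPKM in mutants, against 41.6, 39.2 and 48.7 FPKM in controls (log2 fold change 1.21 ± 0.21 SE, limma adjusted p = 0.0374). The groups did not overlap. Pgm2 and the muscle sums were both lowest in mutant 3 among mutants, and both lowest in control 2 and highest in control 3 among controls. The highest mutants did not match, since Pgm2 was highest in mutant 1 and the muscle sum in mutant 2. With the mean of the muscle markers as a covariate, the log2 fold change of Pgm2 was 0.49 (limma adjusted p = 0.878). That fit cannot separate genotype from muscle level, since the muscle sums did not overlap between groups. The call was lost when any library other than mutant 3 was left out (adjusted p of 0.0514 to 0.141). Gnpnat1, of UDP-N-acetylglucosamine synthesis, had 22.8 ± 7.71 FPKM in mutants and 43.6 ± 5.03 FPKM in controls, and Slc35a2, the Golgi UDP-galactose transporter, 13.3 ± 4.21 FPKM in mutants and 25.2 ± 1.51 FPKM in controls, with no call (adjusted p of 0.112 and 0.137). Galk1, the kinase that phosphorylates galactose, had 31.7 ± 6.17 FPKM in mutants and 51.3 ± 5.21 FPKM in controls (adjusted p = 0.146). The median log2 fold change of the list was -0.33. Of the 18 genes, 6 (33.3%) lay wholly lower and 2 (11.1%) wholly higher in mutants, beside 9.4% and 9.77% of all genes.

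The proteins that carry the chains gave 1 call among 24. Acan, the large chondroitin sulfate proteoglycan of cartilage, fell to 11.7 ± 2.65 FPKM in mutants, against 29.1 ± 3.38 FPKM in controls (limma adjusted p = 0.037). The Acan call was lost when any 1 library was left out (adjusted p of 0.0543 to 0.114), with log2 fold changes of -1.43 to -1.14. The heparan sulfate carriers Sdc2 (49.0 ± 8.56 FPKM in mutants and 86.5 ± 10.2 FPKM in controls) and Gpc3 (53.1 ± 19.7 FPKM in mutants and 109 ± 22.0 FPKM in controls) and the chondroitin sulfate carrier Cspg4 (14.4 ± 3.39 FPKM in mutants and 27.3 ± 5.24 FPKM in controls) did not pass (adjusted p of 0.0898, 0.118 and 0.118). The median of the list was -0.06, with 13 of 24 genes negative.

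Neither keratan sulfate enzymes (6 tested) nor genes of chain breakdown (18 tested) held a call by limma, and 0 and 1 of them had an unadjusted p below 0.05. The breakdown list had the median of opposite sign, 0.22, with 12 of 18 log2 fold changes positive. Cemip, which breaks down hyaluronan, had 1.47 ± 0.307 FPKM in mutants and 3.12 ± 0.376 FPKM in controls. The sulfatase-activating gene Sumf1 had 22.6 ± 4.91 FPKM in mutants and 15.3 ± 2.82 FPKM in controls, the hyaluronidase Hyal2 21.2 ± 2.67 FPKM in mutants and 14.8 ± 3.69 FPKM in controls, and the acetyltransferase Hgsnat 19.5 ± 6.71 FPKM in mutants and 13.5 ± 1.89 FPKM in controls. Of the keratan list, B3gnt2, a chain-extending transferase, had 13.7 ± 1.93 FPKM in mutants and 10.2 ± 2.04 FPKM in controls, and the galactosyltransferase B4galt4 10.7 ± 2.41 FPKM in mutants and 13.6 ± 2.61 FPKM in controls.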

How the data were processed

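Libraries were made from total RNA (miRNeasy) with the SMART-Seq HT and Nextera kits, per the labels' protocols, and such libraries do not keep strand. The authors deposited 1 table per library whose header names no unit. The deposited values were taken as FPKM made by the authors, because of decimals, per-library sums of 581072 to 738395 and Cufflinks in the notes. TopHat2 2.0.13, Bowtie2 2.2.3, SAMtools 0.1.19, Cufflinks 2.2.1 and mm10 are named, without settings, per the submitters' processing notes.

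The test used limma 3.58.1 (R 4.3.3; trend, robust, group as the only term) on log2(FPKM + 1), for genes reaching 1 FPKM in 3 or more libraries, with Benjamini-Hochberg adjustment over all genes. The fit was also run on simulated data with independent normal noise for each gene. Those data did not model the marker or Xist differences, so that run does not test their effect on the calls. Fragment numbers are the smallest whole numbers, up to 500 in the highest library, within 0.01 of a fragment in all 6 libraries. Positions and exon overlaps came from GENCODE M21, promoters from RefSeq (GRCm38.p6).

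The 40 genes, the lists and the alternatives were chosen with earlier results of these data known. Values in every library were given for genes with an unadjusted p below 0.05, for genes with groups that do not overlap at a mean of at least 5 FPKM and for the 2 highest genes of each step, and for further genes where a step called for it. Of each other pathway list up to 4 genes with the smallest p were named. The marker lists were given by counts of calls and some sums, with Matn1 named for its value of 0 and Postn for its call. A further gene of the pathway is not reported here.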

Additional observations from a re-analysis of the deposited data

How the results depend on the processing

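Counts below are of genes at a limma adjusted p below 0.05, in the order all genes, the 40 genes higher, the 40 genes lower, other pathway genes higher and other pathway genes lower in mutants, which were 232, 1, 1, 1 and 1 as reported. Without a filter on low values they were 133, 0, 1, 0 and 0. All genes gave 411 after quantile normalization and 440 with a filter at 5 FPKM, and Hs3st1 was not tested with that filter, so the count of the 40 genes higher was 0. That count was also 0 after median scaling, with a pseudocount of 0.1 and with moderation that was not robust. With the replicate number as a block, all genes gave 2 and the other counts were 0. The same counts came with the muscle marker mean or Xist as a covariate. The muscle sums did not overlap between groups, so the fit with that covariate cannot separate genotype from muscle level. With controls 1 and 2 left out, all genes gave 5 and the other counts were 0, with the remaining control assumed to vary like the mutants. Leaving out 1 library gave 13 to 414 for all genes, 0 to 1 for each count of the 40 genes, 0 to 1 for other genes higher and 0 in each case for other genes lower. The median log2 fold change of the 40 genes ranged from -0.26 to -0.13 when 1 library was left out and kept its sign in every alternative. In pairing by replicate number, same-numbered libraries had correlations of deviations from their group means of 0.006, -0.016 and -0.009. No shared deviation was thus seen by number. Differently numbered libraries were not compared, so these values cannot decide whether the numbers pair samples.

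Of 288 values of single genes, 250 kept their direction and side of the threshold, 21 lost the call and 17 turned sign, none of them with a call. Only Hs3st1 and Slc26a2 had a call to lose, and all 21 losses were theirs. The call held in 3 of 16 alternatives for Hs3st1 and in 9 of 17 for Slc26a2. The other genes were not called as reported or in any alternative, so their unchanged side of the threshold says little about stability. With the muscle covariate the log2 fold changes that turned were -0.10 for B3gat3, 0.24 for Ext2, 1.08 for Sulf2 and -0.84 for Slc35b2. With Xist as a covariate they were -0.00040 for B3gat3 and -0.47 for Slc35b2. Slc35b2 was also at -0.0040 after quantile normalization and -0.47 with controls 1 and 2 left out. Leaving out 1 library gave -0.14 to 0.30 for Slc35b2, -0.12 to 0.48 for B3gat3, -0.48 to 0.15 for Chst12, -0.91 to 0.046 for Sulf2 and -0.45 to 0.039 for B4galt7. The cause was not tested. Low fragment numbers limit the rarest genes, as for Chst13, whose 37 fragments gave a ratio of 1.08 (exact 95% interval 0.536 to 2.18, counting error only).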
